A study of Drosophila melanogaster with 36 samples.

Results

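The fat body of Drosophila melanogaster, the fly's counterpart of liver and adipose tissue, was compared between younger and older females that had been reared as larvae on 100% sugar-yeast-agar (SYA, the medium-quality or M diet). Of the 36 mRNA libraries of the series, the 6 that carry the fat body label, the M diet label and either of the time point labels were compared, 3 from RNA-1 females and 3 from RNA-2 females. RNA-1 females were collected after 10% of their cohort had died and RNA-2 females after 60%, so both groups were survivors and age in days is not part of the comparison. Both groups were given a common adult diet and were mated at intervals, and each library came from abdomens, without gut and ovaries, of 11 or 12 pooled females. The 6 libraries of females reared on 120% SYA (the high-quality or H diet), also 3 at RNA-1 and 3 at RNA-2, entered the same model. They share its estimate of the spread, so they bear on every p-value given for M. Their own changes are given only where the larval diets are compared. The replicates are separate pools, so the p-values measure the spread between pools. In bulk tissue of this kind, fewer cells of a type and less RNA per cell cannot be told apart.

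The fat body stores fat and glycogen, releases lipoproteins, sugars and yolk protein precursors into the haemolymph, and makes most of the antimicrobial peptides of the systemic immune response. Those peptides are switched on by the Toll and Imd pathways, which end in NF-kB transcription factors, and the tissue also responds to insulin, juvenile hormone and ecdysone.

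Of 12394 genes listed for fat body, 10850 reached 10 normalized counts in 3 or more of the 12 fat body libraries and were tested with limma on log2(value + 1), in which a log2 fold change understates the change of genes with low values. At a Benjamini-Hochberg adjusted p under 0.05, 924 genes (8.52% of those tested) were higher and 550 (5.07%) lower at RNA-2 than at RNA-1, against 1451 and 406 when each library was divided by its total instead. The 8.52% and 5.07% are the base for the counts of each gene list below. Over all genes tested, the log2 fold change had a median of -0.02. The called genes changed by medians of 0.64 and -0.73 on the log2 scale, and 252 of the higher and 175 of the lower genes changed at least 2-fold. The 3 RNA-2 libraries all lay above the 3 RNA-1 libraries for 921 of the 924 higher genes and all below for 547 of the 550 lower genes, while groups lay apart for 19.9% of all genes tested in each direction. A total of 421 higher and 200 lower genes kept their call whichever of the 12 libraries was left out. The counts of higher and lower genes were 519 and 362 without RNA-1 replicate 1, 521 and 233 without RNA-1 replicate 2, and 531 and 281 without RNA-2 replicate 3. The count of lower genes was 354 without RNA-1 replicate 3, 357 without RNA-2 replicate 1, 289 without RNA-2 replicate 2 and 902 without H RNA-2 replicate 2, whose germline RNA differed from that of the other libraries of its group.

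The libraries differed in ways that touch these counts. Normalized counts summed to between 63172781 and 71330128 per library at RNA-1 and between 63351154 and 65639923 at RNA-2. The defining fat body markers were present in every library, with apolpp (the lipoprotein precursor) at 690852, 746635 and 825213 at RNA-1 and 454798, 490820.2 and 413502 at RNA-2. Of the 9 marker genes 7 fell and none rose (median -0.74, with 1 or 2 higher under some other scalings), and together they took 15.7% to 16.5% of a library's normalized counts in the RNA-1 libraries and 4.81% to 5.9% in the RNA-2 libraries. These 9 include the yolk protein and lipid genes described below. The 24 germline genes had a mean log2 level of 10.3, 9.73 and 9.29 at RNA-1 and of 7.77, 7.44 and 7.92 at RNA-2, so germline RNA was highest in RNA-1 replicate 1. A total of 1789 tested genes are abundant in the ovary (at least 4 times the share they take in head). Of these, 81 (4.53%) were lower and 21 (1.17%) higher, against 469 (5.18%) and 903 (9.97%) of the other 9061 genes. Calls also depend on the spread, to which the H libraries contribute, so these shares alone do not compare the size of the changes. The median log2 fold change was -0.27 for the genes abundant in the ovary and 0.03 for the other genes. The called shares differed with gene length. Of 4 equal groups of genes ordered by total exon length, the shortest (up to 1240 bases) had 12.0% higher and 2.74% lower genes, and the longest (3419 to 71820 bases) 3.49% higher and 9.28% lower genes. With each library's trend on exon length removed, 897 genes were higher and 479 lower, of which 736 and 366 were among the genes called before. The part of germline RNA and of exon length in the results was not tested.

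**Figure D1:**
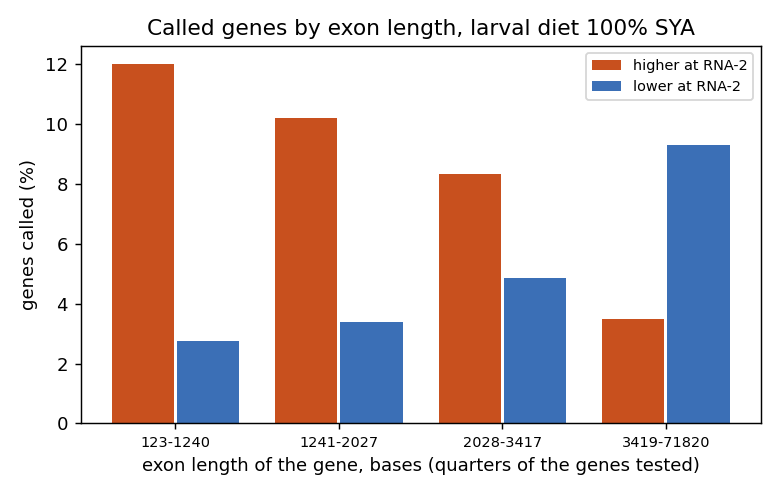
The bars show the percentage of tested genes called higher (orange) or lower (blue) at RNA-2 in each of 4 equal groups of genes ordered by total exon length in bases. The share of higher genes goes from 12.0% among the shortest to 3.49% among the longest, and that of lower genes from 2.74% to 9.28%.

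Antimicrobial peptide genes made up 12 of the 15 largest rises among abundant named genes that are not ovary-abundant (mean of at least 100 normalized counts and groups apart). That mean is over all 6 M libraries. CecA1, CecA2, CecB and edin were under 100 in every RNA-1 library and passed through their RNA-2 values. The 12 of 15 thus rests partly on that filter. Of 20 tested antimicrobial peptide genes, 14 rose, 6 were not called and none fell, with a median log2 fold change of 5.02 (range -0.77 to 6.41). Together they took 0.0755% to 0.0791% of a library's normalized counts in the RNA-1 libraries and 0.52% to 2.23% in the RNA-2 libraries. The summed share was highest in RNA-2 replicate 3 and lowest in RNA-2 replicate 2.

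Diptericins, attacins and drosocin act mainly on Gram-negative bacteria and are read-outs of the Imd pathway. DptA (diptericin A) had normalized counts of 952, 1348 and 848 at RNA-1 and 66327, 9344 and 185602 at RNA-2 (log2 fold change 5.56, standard error 0.85, adjusted p = 0.00319). Its lowest RNA-2 library stood above every RNA-1 library, as the rule for the largest rises required, while the RNA-2 libraries themselves differed widely. For DptB the values were 1757, 1717 and 1447 at RNA-1 and 87425, 13576 and 158809 at RNA-2 (log2 fold change 5.13, standard error 0.75, adjusted p = 0.00254), and for Dro (drosocin) they were 862, 1112 and 709 at RNA-1 and 68585, 9314 and 122534 at RNA-2 (log2 fold change 5.60, standard error 0.81, adjusted p = 0.00251). The RNA-2 pools had the same order in all 3 genes. AttC (attacin C) measured 2919.8, 2525 and 3766 at RNA-1 and 116456, 26768 and 260356 at RNA-2 (log2 fold change 4.94, standard error 0.74, adjusted p = 0.00299), and AttA, AttB and AttD rose by 5.62, 5.49 and 5.48 on the log2 scale. AttD lost its call without any of H RNA-1 replicate 4, H RNA-2 replicate 3, RNA-1 replicates 1, 2 or 3 or RNA-2 replicates 1 or 3 (3.84 to 5.59, adjusted p 0.0505 to 0.0949). The size of the rises rested on RNA-2 replicates 2 and 3. DptA rose by 6.75 without RNA-2 replicate 2 and 4.60 without RNA-2 replicate 3, DptB by 6.17 without RNA-2 replicate 2 and 4.40 without RNA-2 replicate 3 and Dro by 6.70 without RNA-2 replicate 2 and 4.84 without RNA-2 replicate 3. AttC rose by 5.84 without RNA-2 replicate 2 and 4.20 without RNA-2 replicate 3, AttA by 6.98 without RNA-2 replicate 2 and 4.74 without RNA-2 replicate 3 and AttB by 6.84 without RNA-2 replicate 2 and 4.59 without RNA-2 replicate 3. Leaving out RNA-2 replicate 2 raised the median of the 20 genes to 6.01, and leaving out RNA-2 replicate 3 lowered it to 4.03.

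Mtk (metchnikowin, an antifungal peptide) measured 824, 1151 and 593 at RNA-1 and 33788, 7284 and 57780.1 at RNA-2 (log2 fold change 4.87, standard error 0.66, adjusted p = 0.0017), and its relative Mtkl rose by 5.09. Mtk rose by 5.74 without RNA-2 replicate 2 and 4.25 without RNA-2 replicate 3, and Mtkl by 6.56 without RNA-2 replicate 2 and 4.08 without RNA-2 replicate 3. The cecropins, which lyse bacterial membranes, had few counts at RNA-1. CecA1 measured 46.7, 80.1 and 58.7 at RNA-1 and 8394, 252 and 37527 at RNA-2 (log2 fold change 6.13, standard error 1.43, adjusted p = 0.0214), and its RNA-2 values differed more than 100-fold. CecA2 measured 5.85, 27.7 and 20.9 at RNA-1 and 1393, 124 and 15229 at RNA-2 (log2 fold change 6.41, standard error 1.47, adjusted p = 0.02) and CecB 3.5, 10.3 and 4.18 at RNA-1 and 459, 20.8 and 3261 at RNA-2 (log2 fold change 5.64, standard error 1.44, adjusted p = 0.0307). CecA2 lost its call without RNA-1 replicate 1 (5.79, adjusted p = 0.0699) or RNA-2 replicate 1 (6.41, adjusted p = 0.0529), CecA1 without any of RNA-1 replicates 1, 2 or 3 or RNA-2 replicates 1 or 3 (4.57 to 6.33, adjusted p 0.0541 to 0.0671) and CecB without any of RNA-1 replicates 1, 2 or 3 or RNA-2 replicates 1 or 3 (3.97 to 6.05, adjusted p 0.0657 to 0.0882). Where still called, CecA1 rose by 8.18 without RNA-2 replicate 2, CecA2 by 8.15 without RNA-2 replicate 2 and 4.68 without RNA-2 replicate 3 and CecB by 7.58 without RNA-2 replicate 2. Drs (drosomycin, an antifungal peptide and the classical Toll read-out), chosen after its values were seen, had 18420.3, 27110.04 and 1981 at RNA-1 and 140249.7, 66927 and 183406 at RNA-2 (log2 fold change 3.59, standard error 0.96, adjusted p = 0.0362), with RNA-1 replicate 3 well below the other 2 RNA-1 pools. It lost its call without any of H RNA-1 replicate 4, RNA-1 replicates 1 or 3 or RNA-2 replicates 1, 2 or 3 (2.42 to 4.03, adjusted p 0.0534 to 0.114), and rose by 4.31 without RNA-1 replicate 2. CecC (log2 fold change 4.28, adjusted p = 0.0564) and Def, the defensin gene (2.70, adjusted p = 0.157), were not called, also chosen after their values were seen. The list counted 9 higher genes without RNA-1 replicate 1 or RNA-2 replicate 1, and 8 with the 6 M libraries alone or without the 3 libraries richest in germline RNA (RNA-1 replicate 1, and replicates 1 and 3 of H RNA-2).

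The Bomanins are short secreted peptides induced by Toll that protect flies from fungi and Gram-positive bacteria. All 12 tested Bomanin genes rose, each in all 12 fits that left out a library, with a median log2 fold change of 2.56 (range 0.93 to 3.96). They took 0.184% to 0.285% of a library's normalized counts in the RNA-1 libraries and 0.991% to 1.34% in the RNA-2 libraries. The RNA-2 pools differed less in them than in the peptides above. BomS5 measured 1609, 1936 and 2415 at RNA-1 and 15820.2, 11183 and 14215 at RNA-2 (log2 fold change 2.79, standard error 0.25, adjusted p = 0.000254) and BomS2, the most abundant by count, 25149, 33738 and 48549 at RNA-1 and 220058, 172182 and 204344 at RNA-2 (log2 fold change 2.52, standard error 0.29, adjusted p = 0.000819). BomBc1, chosen after its values were seen, rose most, with 855, 1269.9 and 1797 at RNA-1 and 30354, 8092 and 29863 at RNA-2 (log2 fold change 3.96, standard error 0.47, adjusted p = 0.000983, and 4.59 without RNA-2 replicate 2). BomT2 measured 6949.6, 8598 and 11787 at RNA-1 and 47239.97, 45154 and 51724 at RNA-2 (log2 fold change 2.43, standard error 0.25, adjusted p = 0.000506) and BomT3 14944, 17623 and 21301 at RNA-1 and 62572, 51069.6 and 62169 at RNA-2 (log2 fold change 1.72, standard error 0.18, adjusted p = 0.000527). In BomS1, which measured 4857, 6855 and 7321 at RNA-1 and 67963, 26969 and 68629 at RNA-2 (log2 fold change 3.00, standard error 0.33, adjusted p = 0.000788), RNA-2 replicate 2 was again the lowest RNA-2 pool. BaraA1, which encodes the precursor of the antifungal baramicin peptides, had 13319, 14600.2 and 40845 at RNA-1 and 246512, 198345 and 251022 at RNA-2 (log2 fold change 3.53, standard error 0.36, adjusted p = 0.000527), and RNA-1 replicate 3 was the highest RNA-1 pool. The transcripts of both lists are short, with median exon lengths of 398.5 bases for the peptides and 386.5 bases for the Bomanins. With the trend on exon length removed, 14 and 12 genes were higher, with medians of 4.83 and 2.38. With the germline mean as a covariate 6 and 11 were higher.

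**Figure D2:**
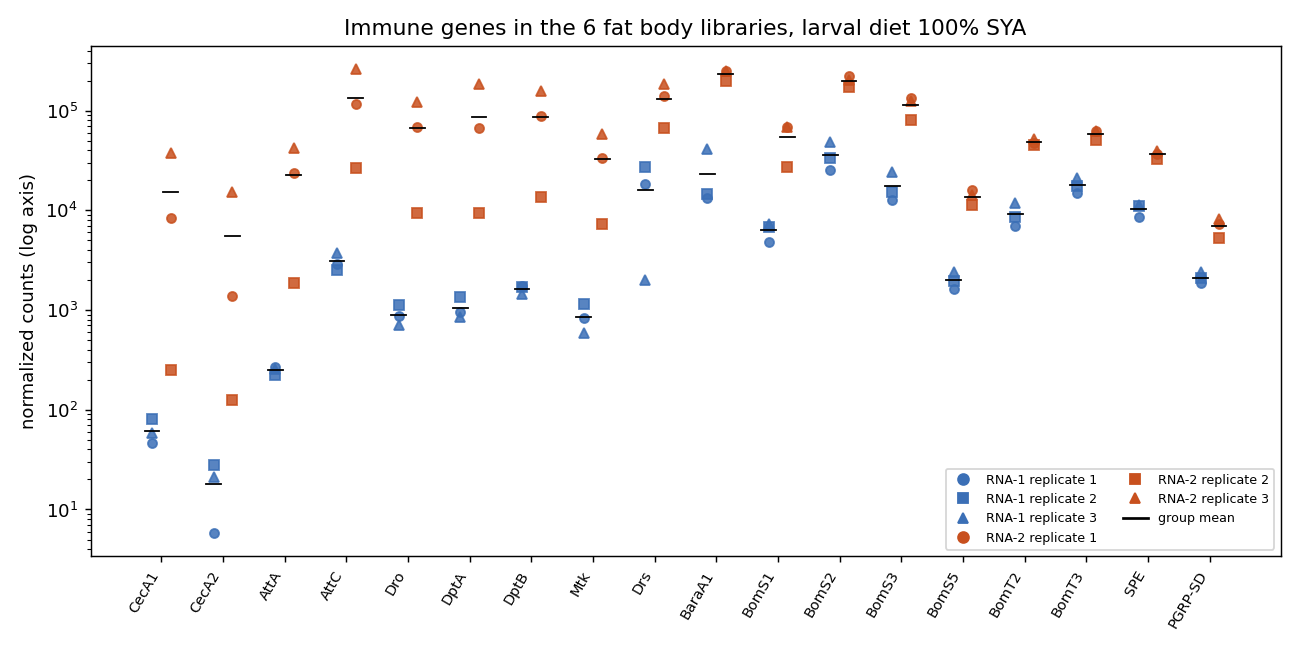
Normalized counts (log axis) of 18 immune genes in each of the 6 libraries, blue for RNA-1 and orange for RNA-2, with the marker shape giving the replicate and the black bar the group mean. RNA-2 replicate 2 (square) is the lowest RNA-2 library for the 9 antimicrobial peptide genes at the left, whereas Bomanins, SPE and PGRP-SD lie closer together within each group.

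The other 3 of the 15 largest rises were in edin, IM18 and SPH93. edin, a secreted peptide gene induced by infection, had 42, 71.9 and 55.7 at RNA-1 and 7181, 384 and 22264 at RNA-2 (log2 fold change 6.13, standard error 1.37, adjusted p = 0.0181). IM18, an immune-induced peptide gene, had 167, 265 and 190.3 at RNA-1 and 17915, 2660.04 and 53944 at RNA-2 (log2 fold change 6.07, standard error 0.92, adjusted p = 0.0031), and SPH93, a serine protease homologue without catalytic activity, had 83.9, 106 and 222 at RNA-1 and 12633, 5091 and 4884 at RNA-2 (log2 fold change 5.75, standard error 0.95, adjusted p = 0.00458). SPH93 was highest in RNA-2 replicate 1, unlike edin and IM18. IM18 and SPH93 were called whichever library was left out, IM18 with 7.25 without RNA-2 replicate 2 and 5.08 without RNA-2 replicate 3, and edin was not called without any of RNA-1 replicates 1 or 2 or RNA-2 replicates 1 or 3 (4.89 to 6.32, adjusted p 0.0513 to 0.0598). It was called with 7.81 without RNA-2 replicate 2.

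Genes upstream of these peptides rose by smaller amounts. Of 19 tested genes of the Toll cascade, 8 rose and none fell (median 0.36). The bacterial recognition proteins PGRP-SA, PGRP-SD and GNBP1 all rose, PGRP-SD with 1851, 2086 and 2404 at RNA-1 and 7256, 5330.1 and 8248 at RNA-2 (log2 fold change 1.70, standard error 0.15, adjusted p = 0.000252), PGRP-SA by 1.22 and GNBP1 by 0.61 (adjusted p = 0.00281 and 0.00143). Among the proteases that pass the signal on, Hayan rose by 1.05 (adjusted p = 0.00423). SPE, the enzyme that cleaves the Toll ligand Spaetzle, measured 8631, 11025 and 11389 at RNA-1 and 37039.98, 33043 and 39312 at RNA-2 (log2 fold change 1.82, standard error 0.15, adjusted p = 0.000146). Its lowest RNA-2 library was more than 2-fold above its highest RNA-1 library. The ligand gene spz (0.32, adjusted p = 0.271) and the receptor gene Tl (adjusted p = 0.996) were not called. Downstream, the NF-kB factor gene Dif rose by 0.64 and the inhibitor gene cact by 0.75, the latter not called without any of RNA-1 replicates 1, 2 or 3 or RNA-2 replicates 1 or 3 (0.54 to 0.81, adjusted p 0.0603 to 0.103). The serpin gene nec, whose product restrains the cascade, rose by 1.18 (adjusted p = 0.000826), with 17846, 17469 and 23167 at RNA-1 and 45827, 38485 and 47715 at RNA-2. Dif, cact, spz and Tl were chosen after their values were seen.

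Of 20 tested genes of the Imd pathway, 8 rose and none fell (median 0.53), with 4 called without RNA-1 replicate 1, RNA-1 replicate 2, RNA-2 replicate 1 or RNA-2 replicate 3 and 5 without RNA-1 replicate 3. The count was 1 with the germline mean as a covariate, 2 without the 3 libraries richest in germline RNA and 4 with the 6 M libraries alone. The peptidoglycan receptor PGRP-LC had 8519, 9747 and 9788 at RNA-1 and 18828, 12081 and 19815 at RNA-2 (log2 fold change 0.82, standard error 0.17, adjusted p = 0.0131), and its decoy PGRP-LF rose by 1.20 (adjusted p = 0.00566). Rel, the NF-kB factor of the pathway, had 10474, 11248 and 13054 at RNA-1 and 25989, 18071 and 32396 at RNA-2 (log2 fold change 1.10, standard error 0.22, adjusted p = 0.0105). PGRP-SB1, which cleaves peptidoglycan, measured 6685, 7098 and 9074 at RNA-1 and 42133, 17320.5 and 37001 at RNA-2 (log2 fold change 1.99, standard error 0.31, adjusted p = 0.00353). In all 4 genes the lowest RNA-2 pool was replicate 2.

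Stress peptides and complement-like proteins included genes that rose as well. Of 10 tested genes of JAK-STAT signalling and the Turandot family, 5 rose and none fell. The Turandots are secreted peptides induced by stress and infection. TotC measured 1172, 1719.9 and 2188 at RNA-1 and 11430.1, 9037 and 14261 at RNA-2 (log2 fold change 2.79, standard error 0.23, adjusted p = 0.000199) and TotA 2990.4, 3948 and 5614 at RNA-1 and 19801, 16215 and 27055 at RNA-2 (log2 fold change 2.34, standard error 0.25, adjusted p = 0.000631), with TotX and TotM up by 2.09 and 1.74. The cytokine gene upd2 was low, at 4.66, 9.24 and 0 at RNA-1 and 29.9, 20.7 and 66.7 at RNA-2 (log2 fold change 3.21, standard error 0.80, adjusted p = 0.0274), and was not called without RNA-1 replicate 1 (3.48, adjusted p = 0.051), RNA-2 replicate 1 (3.31, adjusted p = 0.0592) or RNA-2 replicate 3 (2.74, adjusted p = 0.0986). It rose by 3.91 without RNA-1 replicate 2 and 2.23 without RNA-1 replicate 3. The receptor gene dome (-0.21), the kinase gene hop (-0.20) and the transcription factor gene Stat92E (-0.06) were not called (adjusted p = 0.354, 0.496 and 0.665). Of the thioester proteins, which mark microbes for uptake, Tep2 measured 24578, 23895 and 28453 at RNA-1 and 77142, 47026 and 85677 at RNA-2 (log2 fold change 1.41, standard error 0.20, adjusted p = 0.00189) and Tep4 rose by 1.20 (adjusted p = 0.00214). Tep3 had a log2 fold change of 0.14 and Mcr of -0.29, and neither was called.

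Serpins, inhibitors of serine proteases that limit immune cascades, rose in 8 of 17 tested genes and none fell (median 0.61), with 4 higher with the germline mean as a covariate and 5 without the 3 libraries richest in germline RNA. Spn88Eb measured 5527, 4871 and 6085 at RNA-1 and 43175, 27054 and 53468 at RNA-2 (log2 fold change 2.86, standard error 0.25, adjusted p = 0.000254) and Spn43Ad 626, 565 and 621 at RNA-1 and 1424, 1413 and 1487 at RNA-2 (log2 fold change 1.26, standard error 0.11, adjusted p = 0.000199). The Spn43Ad groups were tight and far apart. Spn42Dd, Spn43Ab, Spn27A and Spn42Da rose by 0.98, 0.84, 0.62 and 0.51. Lysozymes, digestive and bacteriolytic enzymes made largely in the gut, went the other way. Of 7 tested, 3 fell and none rose (median -2.17). LysC measured 861, 868 and 1139 at RNA-1 and 49.7, 29.4 and 249 at RNA-2 (log2 fold change -3.70, standard error 0.79, adjusted p = 0.0145), and LysB and LysD fell by 2.52 and 2.17 on the log2 scale. LysC was called whichever library was left out, with -3.08 without RNA-2 replicate 2 and -4.60 without RNA-2 replicate 3. LysB lost its call without any of RNA-1 replicates 1 or 2 or RNA-2 replicate 1 (-2.58 to -2.23, adjusted p 0.0575 to 0.0681) and LysD without any of H RNA-1 replicates 1, 2 or 4, RNA-1 replicates 1, 2 or 3 or RNA-2 replicates 1, 2 or 3 (-2.39 to -2.04, adjusted p 0.0503 to 0.114), and 1 lysozyme gene in all was called lower without RNA-1 replicate 1, RNA-1 replicate 2 or RNA-2 replicate 1, and 1 with the germline mean as a covariate.

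Some digestive protease genes fell too. Of 23 tested genes of the gut list, 3 fell and none rose (median -0.96, range -3.37 to 1.15), and the list took 1.39% to 2.26% of a library's normalized counts in the RNA-1 libraries and 0.652% to 0.883% in the RNA-2 libraries. None of its 24 genes was at 0 in all 6 libraries. The trypsin epsilonTry measured 22394, 25317 and 30518 at RNA-1 and 3389, 4168 and 6215 at RNA-2 (log2 fold change -2.54, standard error 0.66, adjusted p = 0.0323), the Jonah protease Jon65Aiv 230735, 224682 and 300097 at RNA-1 and 45126, 42166 and 60754 at RNA-2 (log2 fold change -2.36, standard error 0.57, adjusted p = 0.0242) and Jon25Bii 27851, 30582 and 41597 at RNA-1 and 769.6, 4244 and 9723 at RNA-2 (log2 fold change -3.37, standard error 0.82, adjusted p = 0.0257). yip7, a related protease not on the list, measured 207277, 218406 and 330291 at RNA-1 and 48708, 45775 and 65135 at RNA-2 (log2 fold change -2.23, standard error 0.54, adjusted p = 0.0248). Separate groups were a condition for naming genes by the size of their fall, and all 4 met it. They lost their calls without any of RNA-1 replicates 1, 2 or 3 or RNA-2 replicates 1, 2 or 3 (-2.78 to -2.35, adjusted p 0.0602 to 0.093) for epsilonTry, any of RNA-1 replicates 1, 2 or 3 or RNA-2 replicates 1, 2 or 3 (-2.52 to -2.22, adjusted p 0.0533 to 0.0706) for Jon65Aiv, any of RNA-1 replicates 1, 2 or 3 or RNA-2 replicate 2 (-3.58 to -3.20, adjusted p 0.0509 to 0.0705) for Jon25Bii and any of RNA-1 replicates 1, 2 or 3 or RNA-2 replicates 1, 2 or 3 (-2.38 to -2.02, adjusted p 0.0535 to 0.072) for yip7, and Jon25Bii had -2.35 without RNA-2 replicate 1 and -4.18 without RNA-2 replicate 3. The list counted none without any of the 3 RNA-1 libraries or RNA-2 replicate 2, and 1 without RNA-2 replicate 1. The list counted 6 lower genes without H RNA-2 replicate 2 and 5 without H RNA-2 replicate 3. It counted 7 with the germline mean as a covariate, 8 with quantile normalization, 5 with library totals or the exon length trend removed and 6 with the 6 M libraries alone. The gut had been dissected away in these samples, and the part of residual gut RNA was not tested.

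Yolk protein precursors, made by the female fat body and by follicle cells and taken up by the growing egg, fell at RNA-2. Yp1, Yp2 and Yp3 together held 14.0%, 13.4% and 13.6% of normalized counts in the RNA-1 libraries and 3.42%, 3.96% and 3.16% in the RNA-2 libraries. Yp1 measured 3870711, 4009230 and 4382948 at RNA-1 and 1466853, 1699269.7 and 1321472 at RNA-2 (log2 fold change -1.46, standard error 0.14, adjusted p = 0.000376), Yp2 2733765, 2765673 and 2757233 at RNA-1 and 418719, 572519 and 445643 at RNA-2 (log2 fold change -2.54, standard error 0.15, adjusted p = 2.27e-05) and Yp3 2263615, 2343810.3 and 2593286 at RNA-1 and 291646, 328127 and 235331 at RNA-2 (log2 fold change -3.08, standard error 0.15, adjusted p = 1.08e-05). The 3 genes thus fell by unequal amounts, Yp1 least and Yp3 most, and each fell whichever library was left out. All 3 RNA-1 libraries and all 3 RNA-2 libraries stayed close together in each gene. The 5 genes with the highest mean counts, which also grow with transcript length, were these 3, Cyp4g1 and eEF1alpha1. Cyp4g1, a cytochrome P450 of hydrocarbon synthesis in oenocytes, measured 1790047, 2452778 and 2370801 at RNA-1 and 2278082, 2017933 and 2115115 at RNA-2 (log2 fold change -0.03, standard error 0.14, adjusted p = 0.902), and its groups overlapped. eEF1alpha1, a translation elongation factor, had a log2 fold change of 0.08 (adjusted p = 0.754). yl, the yolk receptor of the oocyte and ovary-abundant, measured 9193, 5693 and 2542 at RNA-1 and 321, 203 and 176 at RNA-2 (log2 fold change -4.49, standard error 1.18, adjusted p = 0.0338) and lost its call without any of RNA-1 replicates 1 or 2 or RNA-2 replicates 1, 2 or 3 (-4.75 to -4.07, adjusted p 0.0652 to 0.105).

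Transcripts of egg chambers were lower and more scattered. Of 21 tested eggshell genes 8 fell, of 24 germline genes 6 fell and of 17 cell cycle genes none was called (6 had an unadjusted p under 0.05 in limma), with medians of -3.84, -2.27 and -2.53, and none of the 3 lists had a gene that rose. The RNA-2 libraries all lay below the RNA-1 libraries for 13 eggshell, 21 germline and 17 cell cycle genes, against 19.9% of all genes tested. Genes of these lists can vary together with a library's germline RNA, so the counts are not of independent genes. All eggshell and cell cycle genes and 18 of the germline genes were ovary-abundant. The 6 called germline genes fell by unequal amounts. The log2 fold change was -3.78 for orb, against -0.73, -0.49 and -0.50 for grk, Rbp9 and tor. Without ovary-abundant genes, 2 germline genes were lower and the list median was -0.17. The chorion gene Cp36 measured 256, 12677 and 645 at RNA-1 and 31, 56.5 and 16.5 at RNA-2 (log2 fold change -5.33, standard error 1.23, adjusted p = 0.0205) and Cp38 255, 10298 and 531 at RNA-1 and 45.8, 40.8 and 12.7 at RNA-2 (log2 fold change -5.22, standard error 1.26, adjusted p = 0.0246). RNA-1 replicate 2 carried most of both. Cp19 measured 70, 2424 and 1932 at RNA-1 and 15.5, 3.58 and 2.99 at RNA-2 (log2 fold change -6.69, standard error 1.41, adjusted p = 0.0137) and Cp16 30.3, 123 and 1139.97 at RNA-1 and 4.76, 2.15 and 1.49 at RNA-2 (log2 fold change -5.53, standard error 1.25, adjusted p = 0.0188), and the vitelline membrane genes Vm34Ca and Vm26Aa had log2 fold changes of -5.50 and -5.12. The log2 fold change was -6.49 without RNA-1 replicate 1 and -3.68 without RNA-1 replicate 2 for Cp36, -6.29 without RNA-1 replicate 1 and -3.62 without RNA-1 replicate 2 for Cp38, -8.34 without RNA-1 replicate 1, -5.95 without RNA-1 replicate 3 and -7.34 without RNA-2 replicate 1 for Cp19 and -6.72 without RNA-1 replicate 1 and -4.13 without RNA-1 replicate 3 for Cp16, where these genes were still called. Cp36 lost its call without RNA-2 replicate 1 (-5.34, adjusted p = 0.0536) or RNA-2 replicate 3 (-4.90, adjusted p = 0.0734), Cp38 without RNA-2 replicate 2 (-5.47, adjusted p = 0.0529) or RNA-2 replicate 3 (-4.66, adjusted p = 0.0866), Cp19 without RNA-1 replicate 2 (-5.79, adjusted p = 0.0561) or RNA-2 replicate 3 (-6.32, adjusted p = 0.0514) and Cp16 without any of RNA-1 replicate 2 or RNA-2 replicates 2 or 3 (-5.73 to -5.27, adjusted p 0.0517 to 0.0645). The 2 vitelline membrane genes lost their calls without any of H RNA-1 replicates 2 or 4, H RNA-2 replicates 1 or 3, RNA-1 replicates 1 or 2 or RNA-2 replicates 2 or 3 (-6.21 to -3.83, adjusted p 0.0529 to 0.138) and without any of H RNA-1 replicates 2 or 4, H RNA-2 replicates 1, 2 or 3, RNA-1 replicates 1, 2 or 3 or RNA-2 replicates 2 or 3 (-5.88 to -3.69, adjusted p 0.0507 to 0.147), in that order, and were called with -6.47 without RNA-1 replicate 3 and -6.68 without RNA-2 replicate 1 and with -6.59 without RNA-2 replicate 1. Each of the 6 lost its call when RNA-2 replicate 3 was left out, and no eggshell gene was called without it. The eggshell count was 5 without RNA-1 replicate 1, 3 without RNA-1 replicate 2 or RNA-2 replicate 2, and 5 without any of H RNA-1 replicate 4, H RNA-2 replicate 1 and H RNA-2 replicate 3. The germline count was 1 without RNA-1 replicate 1 or RNA-2 replicate 1, and 0 without RNA-1 replicate 2, RNA-1 replicate 3, RNA-2 replicate 2 or RNA-2 replicate 3. It was 3, 2 and 17 without H RNA-1 replicate 2, H RNA-1 replicate 4 and H RNA-2 replicate 2, and without the last of these 10 cell cycle genes were called lower. With the germline mean as a covariate, 3 eggshell genes and 1 germline gene were lower and 1 cell cycle gene higher, and the medians of the last 2 lists turned positive (0.07 and 0.95). That covariate is the mean of the same 24 germline genes. It fixes their mean adjusted change in advance, so the fit tells nothing about the germline list. Without the 3 libraries richest in germline RNA, 5 eggshell and 9 germline genes were lower, and 2 germline genes with the exon length trend removed. With the 6 M libraries alone the counts of the 3 lists were 3, 13 and 3. Another pair of genes of reproductive tissue outside these lists fell, and neither was ovary-abundant. tj, a transcription factor gene of somatic gonad cells, measured 2135, 2462 and 2381 at RNA-1 and 469.97, 434 and 389 at RNA-2 (log2 fold change -2.43, standard error 0.13, adjusted p = 1.27e-05). It was called whichever library was left out. Send1, a protease gene of the spermatheca, measured 50.1, 443 and 172 at RNA-1 and 10.7, 7.16 and 2.25 at RNA-2 (log2 fold change -4.54, standard error 0.96, adjusted p = 0.0134) and was not called without RNA-1 replicate 2 (-3.80, adjusted p = 0.0517) or RNA-2 replicate 3 (-4.01, adjusted p = 0.0534), and had -5.36 without RNA-1 replicate 1.

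Genes of the lipid store changed in both directions. Of 26 tested genes of fat storage and lipoproteins, 7 fell and 3 rose (median -0.15). Lsd-1, the perilipin that coats lipid droplets, measured 132075, 144301 and 146476 at RNA-1 and 53731, 72685 and 42062 at RNA-2 (log2 fold change -1.36, standard error 0.19, adjusted p = 0.0019). apolpp, whose values are given above, fell by 0.74 on the log2 scale (standard error 0.11, adjusted p = 0.00306), and its receptor gene LpR1 fell by 0.59 (adjusted p = 0.0199). The fatty acid synthase gene FASN1 measured 379224, 391669 and 421782 at RNA-1 and 255187, 318905 and 249381 at RNA-2 (log2 fold change -0.54, standard error 0.14, adjusted p = 0.0328). On the rising side, the triglyceride lipase gene bmm measured 12629, 11558 and 16262 at RNA-1 and 19875, 22482 and 25625 at RNA-2 (log2 fold change 0.76, standard error 0.15, adjusted p = 0.0101) and mdy, the diacylglycerol acyltransferase that makes triglyceride, rose by 0.43 (adjusted p = 0.0103), with Lip4, a lipase gene, up by 0.79. Lsd-1, apolpp, bmm and mdy held in every fit that left out a library. LpR1 lost its call without any of RNA-1 replicates 2 or 3 or RNA-2 replicate 2 (-0.57 to -0.50, adjusted p 0.0564 to 0.0747), FASN1 without any of H RNA-2 replicate 3, RNA-1 replicates 1, 2 or 3 or RNA-2 replicates 1 or 3 (-0.58 to -0.48, adjusted p 0.0503 to 0.109) and Lip4 without any of RNA-1 replicates 1 or 2 or RNA-2 replicates 1 or 3 (0.63 to 0.80, adjusted p 0.0546 to 0.0816). The count of lower genes was 4 without RNA-1 replicate 1, 2 without RNA-1 replicate 2 or RNA-1 replicate 3, and 3 without RNA-2 replicate 1, RNA-2 replicate 3 or H RNA-2 replicate 3. With the trend on exon length removed 3 were higher and 2 lower, and with library totals 7 and 7. None was higher and 5 were lower with the germline mean as a covariate, and none was higher and 4 were lower without the 3 libraries richest in germline RNA. Of 11 tested genes of fatty acid oxidation, only Acox57D-d, a peroxisomal acyl-CoA oxidase, was called. It measured 7030.1, 8108 and 7586 at RNA-1 and 3391, 4329 and 3854 at RNA-2 (log2 fold change -0.98, standard error 0.11, adjusted p = 0.000799). With library totals 3 genes of that list were higher.

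Most genes of amino acid and one-carbon metabolism rose. Of 16 tested genes 10 rose and 2 fell (median 0.81), against 6 higher and none lower with the germline mean as a covariate, and the list took 0.338% to 0.37% of a library's normalized counts in the RNA-1 libraries and 0.591% to 0.674% in the RNA-2 libraries. The greatest rise was in Nmdmc (chromosome 3R, 9042508 to 9050555 in the BDGP6 annotation), the mitochondrial folate enzyme that interconverts methylene- and formyl-tetrahydrofolate. It measured 1168, 1286 and 2618 at RNA-1 and 9916, 11920.5 and 11547 at RNA-2 (log2 fold change 2.81, standard error 0.27, adjusted p = 0.000382). pug, the cytosolic folate enzyme of the same pathway, measured 29264, 27314 and 39864 at RNA-1 and 71790.1, 82441 and 69279 at RNA-2 (log2 fold change 1.23, standard error 0.13, adjusted p = 0.000629). The groups did not overlap in either gene, and RNA-1 replicate 3 was the highest RNA-1 library. Got2, the mitochondrial aspartate aminotransferase, measured 18149, 16166 and 23038 at RNA-1 and 52714, 76926 and 60187 at RNA-2 (log2 fold change 1.72, standard error 0.18, adjusted p = 0.000506), and the cytosolic form Got1 measured 14060, 14681 and 17648 at RNA-1 and 27856, 29197 and 28235 at RNA-2 (log2 fold change 0.89, standard error 0.11, adjusted p = 0.00101). Sardh, which breaks down sarcosine to glycine and a folate-bound carbon, was low in counts, with 102, 99.6 and 226 at RNA-1 and 790.3, 593 and 753 at RNA-2 (log2 fold change 2.41, standard error 0.30, adjusted p = 0.00118). Hn, phenylalanine hydroxylase, rose by 0.95 (adjusted p = 0.00205).

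A further 4 of the list's genes, chosen after their values were seen, rose by smaller amounts. They were Gs1 (glutamine synthetase, 0.60), Cbs (cystathionine beta-synthase, 0.73), Shmt (serine hydroxymethyltransferase, 0.89) and Cth (cystathionine gamma-lyase, 0.55). Sam-S, which makes S-adenosylmethionine, and Gs2, the other glutamine synthetase, fell by 0.43 and 0.41 on the log2 scale (adjusted p = 0.0159 and 0.0492). Nmdmc, pug, Got1, Got2, Sardh, Hn, Gs1 and Cbs were called whichever library was left out. Shmt lost its call without RNA-1 replicate 1 (0.81, adjusted p = 0.0678) or RNA-1 replicate 2 (0.81, adjusted p = 0.0726), Cth without any of RNA-1 replicates 1 or 2 or RNA-2 replicates 1 or 3 (0.46 to 0.58, adjusted p 0.051 to 0.0824), Sam-S without RNA-1 replicate 2 (-0.38, adjusted p = 0.0666) or RNA-2 replicate 3 (-0.35, adjusted p = 0.0552) and Gs2 without any of H RNA-1 replicates 1, 2 or 4, H RNA-2 replicate 3, RNA-1 replicates 2 or 3 or RNA-2 replicates 1, 2 or 3 (-0.42 to -0.34, adjusted p 0.0583 to 0.136).

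Genes of sugar handling rose in part. Of 13 tested genes of trehalose, glycogen and sugar digestion, 6 rose and none fell (median 0.45). tobi, an alpha-glucosidase gene regulated by insulin and adipokinetic hormone, measured 23714, 20976 and 44948 at RNA-1 and 104140.5, 172734 and 102101 at RNA-2 (log2 fold change 2.12, standard error 0.34, adjusted p = 0.00406). Even the lowest RNA-2 library was above the highest RNA-1 library by more than the whole RNA-1 range. AGBE, the glycogen branching enzyme, measured 9584, 10105 and 9932 at RNA-1 and 15684, 21374 and 18692 at RNA-2 (log2 fold change 0.90, standard error 0.15, adjusted p = 0.00429) and Tret1-1, the trehalose transporter, 41894, 43633 and 43721 at RNA-1 and 61425, 68226 and 55934 at RNA-2 (log2 fold change 0.52, standard error 0.09, adjusted p = 0.00573). Pgm1, Pepck1 and Glys rose by 0.62, 0.57 and 0.63 and lost their calls without RNA-1 replicate 1 (0.56, adjusted p = 0.0664) or RNA-1 replicate 2 (0.60, adjusted p = 0.0649), without any of RNA-1 replicates 1 or 2 or RNA-2 replicates 1 or 2 (0.49 to 0.55, adjusted p 0.0546 to 0.0679) and without any of RNA-1 replicates 1, 2 or 3 or RNA-2 replicates 1 or 2 (0.51 to 0.66, adjusted p 0.0685 to 0.102). The list counted 3 without RNA-1 replicate 1 or RNA-1 replicate 2, 2 with the germline mean as a covariate and 3 without the 3 libraries richest in germline RNA. In glycolysis 3 of 13 genes rose, among them Hex-C (15119, 18099 and 19346 at RNA-1 and 30846, 31883 and 24767 at RNA-2, log2 fold change 0.73, standard error 0.15, adjusted p = 0.0126), the hexokinase of the fat body, and Pgi (0.60, adjusted p = 0.0105). Of 16 genes of the tricarboxylic acid cycle 3 rose, ScsbetaA, Mdh2 and Mdh1 by 0.65, 0.47 and 0.47, and none was called without RNA-1 replicate 1 or RNA-1 replicate 2, while 1 was called without RNA-2 replicate 1 or RNA-2 replicate 2. Neither list had a called gene with the germline mean as a covariate, and each had 1 without the 3 libraries richest in germline RNA. With quantile normalization 1 glycolysis gene was higher, and 1 gene of the tricarboxylic acid cycle was higher and 2 lower.

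**Figure D3:**
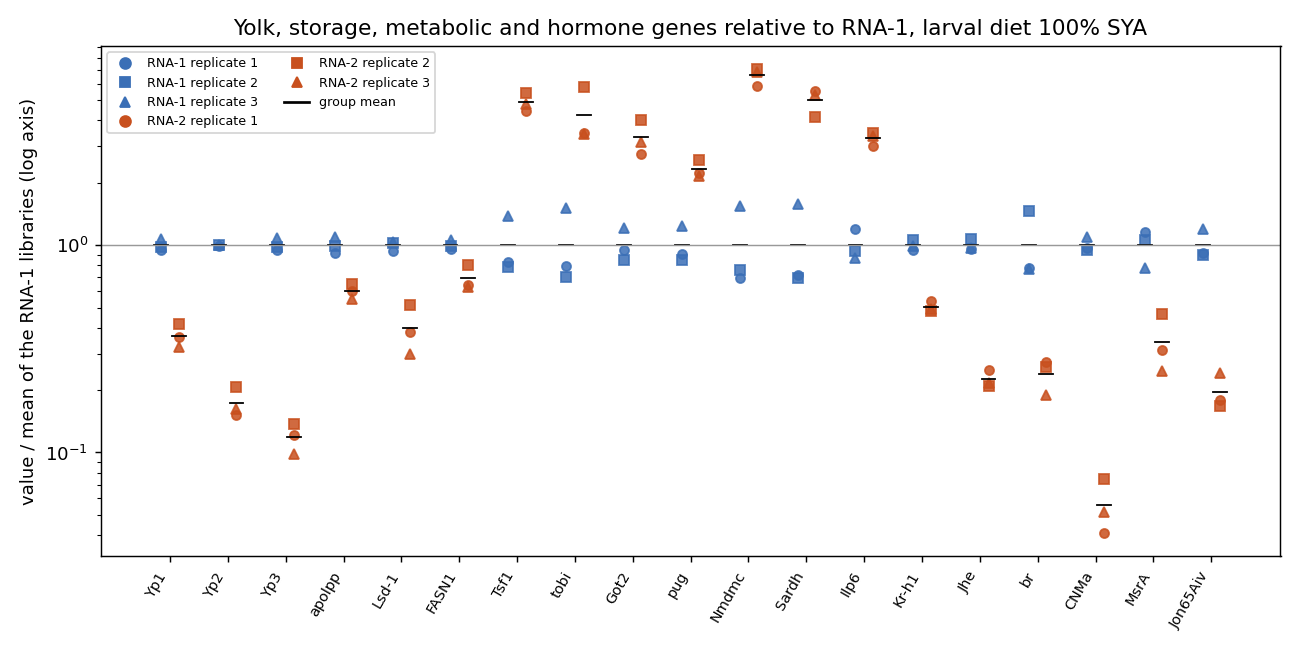
Values of 19 genes in each of the 6 libraries divided by the mean of the 3 RNA-1 libraries (log axis), blue for RNA-1 and orange for RNA-2, with marker shape giving the replicate and the black bar the group mean. The RNA-2 libraries lie below the RNA-1 libraries for yolk, lipid and hormone-response genes and above them for Tsf1, tobi, the amino acid and folate enzymes and Ilp6.

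The number of genes of the large protein complexes that were called depended on the scaling. Of all genes tested 8.52% were higher and 5.07% lower. Of 87 cytosolic ribosomal protein genes 1 was called (RpS15Ab, 0.27, lost without any of RNA-1 replicates 1, 2 or 3 or RNA-2 replicates 1, 2 or 3 (0.24 to 0.29, adjusted p 0.053 to 0.083)), with a list median of 0.09. With library totals 13 were higher (median 0.16), while the median was negative with quantile normalization (-0.06), with the germline mean as a covariate (-0.20) and with the trend on exon length removed (-0.04). Of 72 mitochondrial ribosomal protein genes 3 rose, of 75 nuclear genes of the respiratory chain 1 rose and 1 fell, and of 36 proteasome genes none was called (7 had an unadjusted p under 0.05 in limma), with medians of 0.13, 0.13 and -0.11. Of the proteasome genes 13 were lower with the trend on exon length removed (median -0.21), 12 with quantile normalization and 6 with size factors over genes that are not ovary-abundant. With library totals 7 mitochondrial ribosomal and 6 respiratory genes were higher, and with the exon length trend removed no mitochondrial ribosomal gene was. The respiratory gene that rose, UQCR-11 of complex III, measured 4144, 4498 and 4707 at RNA-1 and 5953, 6791 and 5967 at RNA-2 (log2 fold change 0.49, standard error 0.08, adjusted p = 0.00335) and held in every fit that left out a library. The respiratory gene that fell, ND-B8, was low, with 7, 17.4 and 16.7 at RNA-1 and 0, 2.15 and 2.98 at RNA-2 (log2 fold change -2.57, standard error 0.57, adjusted p = 0.0166) and lost its call without RNA-1 replicate 2 (-2.36, adjusted p = 0.0651) or RNA-1 replicate 3 (-2.39, adjusted p = 0.0529). Of 23 genes of the secretory pathway and the unfolded protein response, 2 rose, the disulphide isomerases ERp60 (18964, 16856 and 19193 at RNA-1 and 24919, 24448 and 29684 at RNA-2, log2 fold change 0.52, standard error 0.09, adjusted p = 0.00562) and CaBP1 (0.74), and the count was 4 without RNA-1 replicate 3 or H RNA-2 replicate 2 and 6 without RNA-2 replicate 2. The 2 of 23 lie near the share of all genes tested. With library totals 11 of the 23 were higher (median 0.34 against 0.26). Of 22 chaperone genes 3 rose, the small heat shock protein Hsp23 (1205, 568 and 607 at RNA-1 and 1859, 1420.3 and 4207 at RNA-2, log2 fold change 1.58, standard error 0.42, adjusted p = 0.036), Hsp70Bc (1.55) and Hsp70Bb (1.41). The latter 2 are near-identical copies between which reads may be split. A single chaperone gene was called higher without RNA-1 replicate 1, RNA-1 replicate 2, RNA-2 replicate 1, H RNA-1 replicate 1, H RNA-1 replicate 4 or H RNA-2 replicate 1, and none without RNA-2 replicate 3, with the germline mean as a covariate or without the 3 libraries richest in germline RNA, against 6 with quantile normalization. No mitochondrial ribosomal gene was called without RNA-1 replicate 1 or RNA-2 replicate 2, and 1 without any other library but H RNA-2 replicate 2. CaBP1 lost its call without any of RNA-1 replicates 1 or 2 or RNA-2 replicate 1 (0.68 to 0.80, adjusted p 0.0545 to 0.0987).

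Iron handling and detoxification genes rose in a few members each, beside 8.52% of all genes tested. Tsf1 (chromosome X, 18387084 to 18390344), the haemolymph transferrin that carries iron, was among the most abundant transcripts that rose. It measured 106741, 100692 and 177516 at RNA-1 and 570293, 697648 and 617522 at RNA-2 (log2 fold change 2.34, standard error 0.20, adjusted p = 0.000234), and the lowest RNA-2 library was more than 3-fold above the highest RNA-1 library. On the same list of 25 antioxidant and metal genes, the peroxiredoxins Prx6c and Prx6b rose by 1.41 and 0.96 (Prx6b was lost without any of RNA-1 replicates 1 or 3 or RNA-2 replicates 2 or 3 (0.72 to 1.00, adjusted p 0.0569 to 0.0789)), and MsrA, which repairs oxidized methionine, measured 27129, 24887 and 18208 at RNA-1 and 7293, 10941 and 5809.7 at RNA-2 (log2 fold change -1.58, standard error 0.26, adjusted p = 0.00491) and was the only gene that fell. With library totals 7 genes of the list were higher, and 1 with the germline mean as a covariate or without the 3 libraries richest in germline RNA, and 3 were lower with quantile normalization. Sod2 had a log2 fold change of 0.30 and was not called (adjusted p = 0.103). Glutathione S-transferases rose in 9 of 34 tested genes and none fell (median 0.57), with 5 called without RNA-1 replicate 1 or RNA-2 replicate 2. With the germline mean as a covariate 3 were higher and 1 lower, without the 3 libraries richest in germline RNA 5 were higher, and with library totals 14. GstD1 measured 24324, 24202 and 26439 at RNA-1 and 34869.8, 39294 and 47430.3 at RNA-2 (log2 fold change 0.69, standard error 0.12, adjusted p = 0.00491) and GstE7 1518, 1635 and 1943 at RNA-1 and 3122, 5034 and 3915 at RNA-2 (log2 fold change 1.22, standard error 0.26, adjusted p = 0.0135), and both held in every fit that left out a library.

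Of 79 cytochromes P450, 20 rose and 4 fell. With the germline mean as a covariate 2 were higher and 7 lower, so the balance of directions turned in that fit. The covariate does not overlap between the M time points, so the part of germline RNA in this cannot be told apart. Without the 3 libraries richest in germline RNA the counts were 9 and 4. Cyp28d1 measured 1675, 1835 and 3664 at RNA-1 and 7878, 6586 and 7315 at RNA-2 (log2 fold change 1.69, standard error 0.32, adjusted p = 0.00833), Cyp28a5 2089, 2305 and 2789.8 at RNA-1 and 5251, 5409 and 7563 at RNA-2 (log2 fold change 1.33, standard error 0.22, adjusted p = 0.00429) and Cyp6g1, an insecticide-metabolizing enzyme, 74153, 70190.1 and 78746 at RNA-1 and 103284, 132410.3 and 113426 at RNA-2 (log2 fold change 0.64, standard error 0.12, adjusted p = 0.00823). On the falling side Cyp313a4 measured 689.6, 615 and 599 at RNA-1 and 409.9, 339 and 377 at RNA-2 (log2 fold change -0.76, standard error 0.13, adjusted p = 0.00556). The number that rose depended on single libraries, with 7 without RNA-1 replicate 1, 9 without RNA-1 replicate 2, 11 without RNA-2 replicate 1 or RNA-2 replicate 2 and 6 without RNA-2 replicate 3. The number that fell was 2 without any of RNA-1 replicates 1, 2 and 3 and RNA-2 replicates 2 and 3, and 8 without H RNA-2 replicate 2. Of 33 UDP-glycosyltransferases 3 rose and 1 fell, and Ugt302C1 (0.86), Ugt301D1 (0.90) and the falling Ugt37C1 (-1.08) held in every fit that left out a library. These counts lie near the 8.52% higher and 5.07% lower among all genes tested. None of this list was higher with the germline mean as a covariate, and 5 were with library totals.

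Some genes of hormone response fell. Of 19 tested genes of juvenile hormone and ecdysone action 6 fell and none rose (median -0.33). Kr-h1, the transcription factor that juvenile hormone induces, measured 8311, 9349 and 8733 at RNA-1 and 4719, 4242 and 4309 at RNA-2 (log2 fold change -0.99, standard error 0.11, adjusted p = 0.000629). Jhe, the esterase that degrades juvenile hormone, measured 352, 396 and 359 at RNA-1 and 92.4, 77.1 and 79.9 at RNA-2 (log2 fold change -2.14, standard error 0.25, adjusted p = 0.000894), and its RNA-1 and RNA-2 libraries were tight. The ecdysone receptor gene EcR measured 2454, 1933 and 1993 at RNA-1 and 1382, 1374 and 1223 at RNA-2 (log2 fold change -0.67, standard error 0.13, adjusted p = 0.0102), and the ecdysone response genes br, Eip78C and Eip74EF fell by 1.98, 1.43 and 0.33 on the log2 scale (adjusted p = 0.0031, 0.0162 and 0.0401). Kr-h1, Jhe, br and EcR held in every fit that left out a library, Eip78C was lost without RNA-1 replicate 2 (-1.31, adjusted p = 0.0642) or RNA-2 replicate 3 (-1.24, adjusted p = 0.061) and Eip74EF without any of H RNA-1 replicates 1, 2 or 4, H RNA-2 replicate 3, RNA-1 replicates 2 or 3 or RNA-2 replicates 1 or 2 (-0.33 to -0.28, adjusted p 0.0535 to 0.135). These genes are long, with a median exon length of 5306 bases, and 4 were called lower with the trend on exon length removed.

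Of 16 genes of insulin signalling 3 rose and 1 fell. Ilp6, the insulin-like peptide that the fat body itself secretes, measured 1449, 1142 and 1051 at RNA-1 and 3644, 4227 and 4087 at RNA-2 (log2 fold change 1.73, standard error 0.18, adjusted p = 0.000506), and the lowest RNA-2 library was more than 2-fold above the highest RNA-1 library. The catalytic subunit gene Pi3K92E rose by 0.47 (adjusted p = 0.00491) and Akt by 0.34. Thor, the translation repressor 4E-BP that FOXO induces, measured 42757, 46583 and 50401 at RNA-1 and 34978, 32399 and 26038 at RNA-2 (log2 fold change -0.59, standard error 0.16, adjusted p = 0.0353) and was lost without any of RNA-1 replicates 1, 2 or 3 or RNA-2 replicates 2 or 3 (-0.65 to -0.47, adjusted p 0.0598 to 0.119). Akt was lost without any of RNA-1 replicates 1, 2 or 3 or RNA-2 replicates 1 or 3 (0.29 to 0.36, adjusted p 0.0568 to 0.101), and 5 insulin genes were called higher without RNA-2 replicate 2, 5 with library totals and 6 with the trend on exon length removed. Of 16 genes of TOR signalling 1 rose and 2 fell (none in either direction with the germline mean as a covariate, and 3 and 1 with library totals and 1 and 4 with quantile normalization), among them slif, an amino acid transporter gene that is ovary-abundant, with 2406, 2041 and 3128 at RNA-1 and 592, 798 and 617 at RNA-2 (log2 fold change -1.91, standard error 0.38, adjusted p = 0.0105). CNMa, which encodes the neuropeptide CNMamide (chromosome 3L, 1850915 to 1855591), had the largest fall among the genes of all lists and the 30 named by size that were called whichever library was left out. It measured 1140.4, 1110.4 and 1286 at RNA-1 and 48.1, 88.1 and 60.6 at RNA-2 (log2 fold change -4.19, standard error 0.21, adjusted p = 1.08e-05). MFS1, a gene of the major facilitator family of transporters, measured 997, 1097 and 2112 at RNA-1 and 33.5, 87.3 and 155 at RNA-2 (log2 fold change -4.08, standard error 0.77, adjusted p = 0.00844) and was called in every such fit too, with -3.49 without RNA-2 replicate 1. Pebp1, a phosphatidylethanolamine-binding protein gene, measured 10493, 20097 and 25491 at RNA-1 and 839.9, 3533 and 3662 at RNA-2 (log2 fold change -2.98, standard error 0.76, adjusted p = 0.0308) and lost its call without any of RNA-1 replicates 2 or 3 or RNA-2 replicates 1 or 3 (-3.35 to -2.28, adjusted p 0.0501 to 0.0916). CNT2, a nucleoside transporter gene, measured 939, 2002 and 2745 at RNA-1 and 382, 408 and 344 at RNA-2 (log2 fold change -2.19, standard error 0.56, adjusted p = 0.03) and lost its call without any of RNA-1 replicates 2 or 3 or RNA-2 replicates 1, 2 or 3 (-2.25 to -1.86, adjusted p 0.0683 to 0.0926). Of 20 autophagy genes 5 rose and 2 fell, with Atg7 (1083, 1107 and 1066 at RNA-1 and 2757, 1671 and 2743 at RNA-2, log2 fold change 1.10, standard error 0.21, adjusted p = 0.00796), the enzyme that activates ubiquitin-like proteins of autophagy, called whichever library was left out, and 3 higher without RNA-1 replicate 1, RNA-1 replicate 2, RNA-2 replicate 2 or RNA-2 replicate 3. No autophagy gene was called in either direction with the germline mean as a covariate, and without the 3 libraries richest in germline RNA 4 were higher and none lower. Of 8 clock genes tim and Pdp1 rose (0.44 and 0.42) and cwo fell by 0.42 on the log2 scale, lost without any of RNA-1 replicate 1 or RNA-2 replicates 1, 2 or 3 (0.37 to 0.45, adjusted p 0.0504 to 0.0749) for tim, any of RNA-1 replicates 1 or 2 or RNA-2 replicates 2 or 3 (0.32 to 0.45, adjusted p 0.0644 to 0.0866) for Pdp1 and any of RNA-1 replicates 2 or 3 or RNA-2 replicates 1 or 3 (-0.43 to -0.35, adjusted p 0.05 to 0.0792) for cwo. No clock gene was higher with the germline mean as a covariate.

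**Figure D4:**
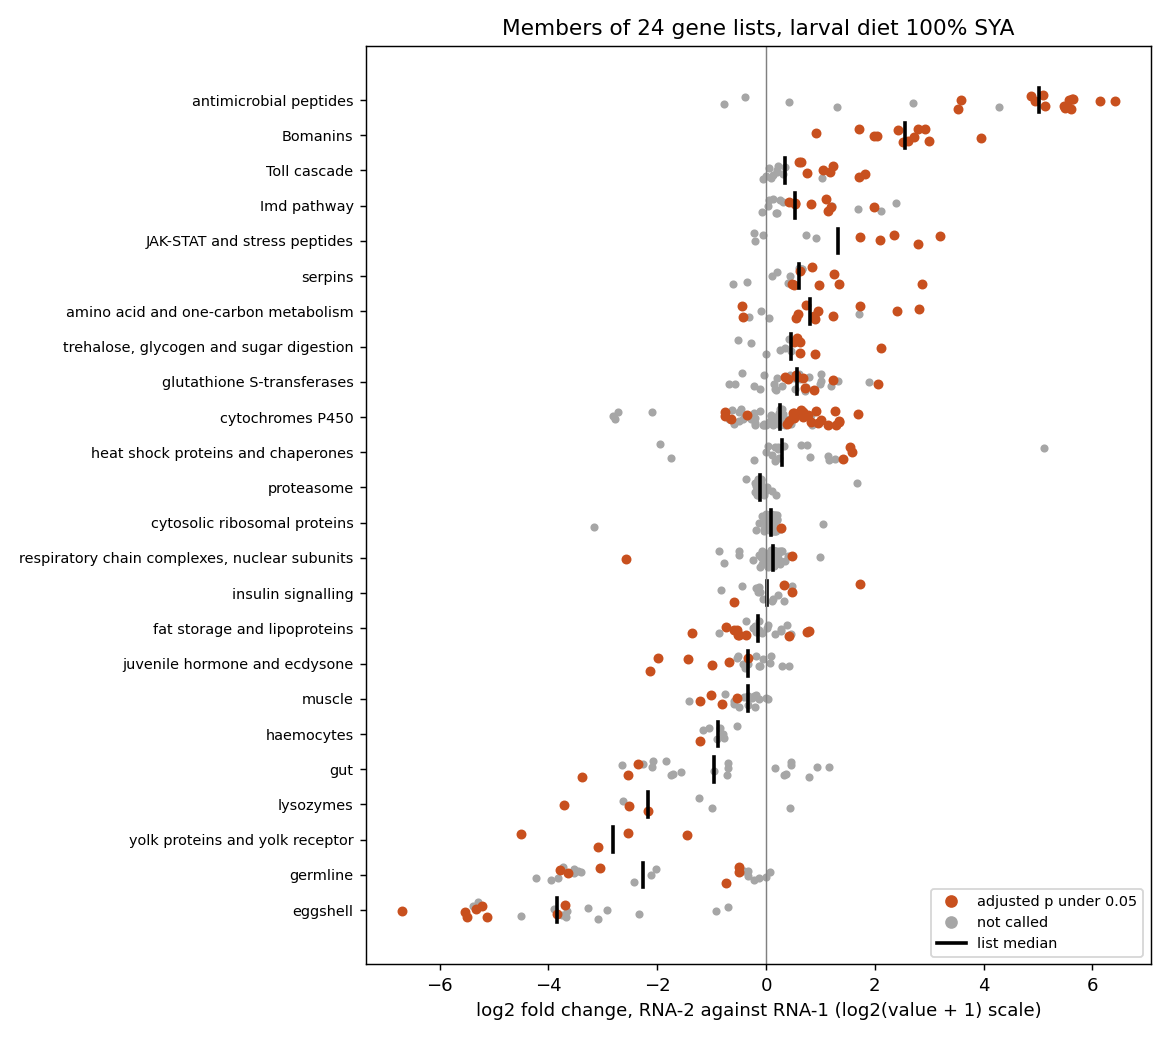
Each point is a gene's log2 fold change from RNA-1 to RNA-2 (on the log2(value + 1) scale) in 24 gene lists, orange where the adjusted p is under 0.05 and grey where it is not, and the black bar is the list median. Medians range from -3.84 for eggshell genes to 5.02 for antimicrobial peptides.

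Markers of other cell types had mostly negative log2 fold changes. Of 22 muscle genes 4 fell and none rose (median -0.34), and the list took 0.592% to 0.727% of a library's normalized counts in the RNA-1 libraries and 0.481% to 0.52% in the RNA-2 libraries. The giant muscle proteins sls and Obsc fell by 1.21 and 1.00 on the log2 scale. The muscle count was 2 without RNA-1 replicate 1, RNA-1 replicate 3 or RNA-2 replicate 2, none without RNA-1 replicate 2, 1 without RNA-2 replicate 1 and 7 without H RNA-1 replicate 2 or with the 6 M libraries alone, 1 with the germline mean as a covariate and 2 without the 3 libraries richest in germline RNA. All 8 haemocyte genes had negative changes and NimC1 alone was called (857, 1103 and 633 at RNA-1 and 626, 261 and 291 at RNA-2, log2 fold change -1.22, standard error 0.35, adjusted p = 0.0484), of 5 oenocyte genes FarO alone (-0.54, adjusted p = 0.0296) and of 5 neuronal genes elav alone (494, 532 and 518 at RNA-1 and 309, 284 and 311 at RNA-2, log2 fold change -0.77, standard error 0.14, adjusted p = 0.00652). The haemocyte list took 0.00658% to 0.0127% of a library's normalized counts in the RNA-1 libraries and 0.00382% to 0.00684% in the RNA-2 libraries, and the neuronal list 0.00358% to 0.00387% of a library's normalized counts in the RNA-1 libraries and 0.00221% to 0.00262% in the RNA-2 libraries. NimC1 lost its call without any of H RNA-1 replicates 1, 2 or 4, H RNA-2 replicates 1 or 3, RNA-1 replicates 1, 2 or 3 or RNA-2 replicates 2 or 3 (-1.42 to -0.98, adjusted p 0.0513 to 0.154) and FarO without any of RNA-1 replicates 2 or 3 or RNA-2 replicates 1, 2 or 3 (-0.59 to -0.43, adjusted p 0.051 to 0.103). The 5 photoreceptor genes, which mark cells of the head, had log2 fold changes of -1.53 to -0.94 and none was called (none had an unadjusted p under 0.05 in limma), with ninaE at 2502, 1995 and 1421 at RNA-1 and 1655, 1217 and 145 at RNA-2, lowest in RNA-2 replicate 3. The photoreceptor list took 0.00292% to 0.00617% of a library's normalized counts in the RNA-1 libraries and 0.000374% to 0.00429% in the RNA-2 libraries. No gene of these lists was at 0 in all 6 libraries, and the part of these cells in the results was not tested. Of 6 larval serum and storage protein genes none was called (1 had an unadjusted p under 0.05 in limma). Fbp1, a receptor for larval serum protein, measured 3395, 2076 and 118514 at RNA-1 and 19.2, 329.5 and 61.6 at RNA-2 (log2 fold change -6.98, standard error 2.08, adjusted p = 0.0526), with RNA-1 replicate 3 far above the rest.

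The difference between the larval diets was tested as the H change minus the M change. Of 10850 genes 219 (2.02%) passed, in 190 of which the change was more negative in H. Dro rose by 5.60 in M and had -0.09 in H (difference -5.69, standard error 1.15, adjusted p = 0.0397). DptB had 5.13 and -0.36 (difference -5.50, adjusted p = 0.0378), and Mtk 4.87 and 0.04 (difference -4.84, adjusted p = 0.0378). In H, Dro measured 2350.3, 2122 and 2009 at RNA-1 and 1518, 4451 and 1233 at RNA-2, so the groups overlapped there. For the antimicrobial peptides the list median was 5.02 in M and 0.08 in H, and 3 of 20 genes passed the test of the difference. For the Bomanins the medians were 2.56 and 0.85 and 4 of 12 passed. Of 23 genes of the secretory pathway 5 passed and of 36 proteasome genes 2, with list medians of 0.26 and -0.11 in M and of -0.30 and -0.39 in H. In H, where 6.55% of all genes were called higher and 8.76% lower, 1 proteasome gene was called higher and 29 lower. Of the metabolic genes, Nmdmc rose by 2.81 in M and by 0.91 in H (difference -1.90, adjusted p = 0.0389), and Ilp6 by 1.73 in M against a log2 fold change of 0.42 in H (difference -1.30, adjusted p = 0.0378).

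Differences were small in some of the other genes. The yolk genes Yp1, Yp2 and Yp3 fell by 1.49, 2.53 and 2.85 on the log2 scale in H, and the differences from M were -0.03, 0.00 and 0.24 (standard errors 0.20, 0.21 and 0.21). Tsf1 had 2.34 in M and 2.61 in H (difference 0.27, standard error 0.29, adjusted p = 0.562), Kr-h1 a difference of 0.04 (standard error 0.15) and CNMa of 0.55 (standard error 0.30). None of these 6 passed the test, which does not show that they were alike. The calls of the difference were few under some settings. None was made in limma without RNA-1 replicate 2 (2394 genes at an unadjusted p under 0.05), without H RNA-1 replicate 4 (1866), with the germline mean as a covariate (1184) or without the 3 libraries richest in germline RNA (1184), and 2280 were made without H RNA-2 replicate 2. Without single libraries the other counts were 39 (RNA-1 replicate 1), 52 (RNA-2 replicate 1), 333 (RNA-2 replicate 2), 75 (RNA-2 replicate 3), 26 (H RNA-1 replicate 2), 25 (H RNA-2 replicate 1) and 5 (H RNA-2 replicate 3). H RNA-2 replicates 1 and 3 had germline means of 10.5 on the log2 scale each and replicate 2 one of 7.63.

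**Figure D5:**
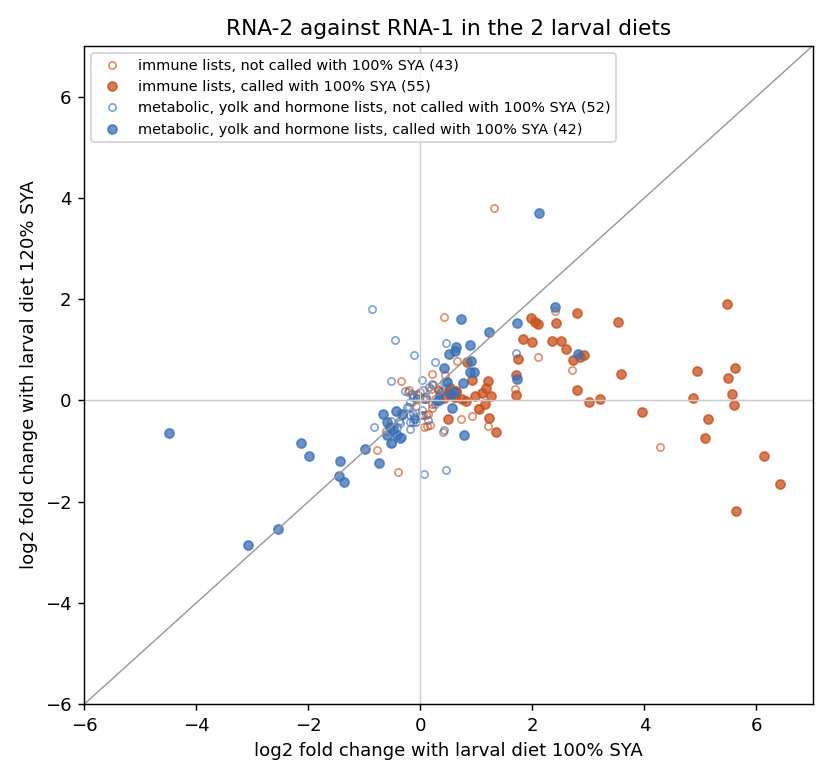
Change from RNA-1 to RNA-2, as log2 fold change, with the 100% SYA larval diet (horizontal axis) and the 120% SYA larval diet (vertical axis) for 98 tested genes of 6 immune lists (orange) and 94 of 6 metabolic, yolk and hormone lists (blue), filled where called with 100% SYA, with the grey line marking equal change. Filled points were chosen by their horizontal value. The orange points farthest to the right, antimicrobial peptides, lie below the line.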

How the data were processed

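Poly(A) RNA of pooled fat bodies was sequenced with a stranded kit. Per the labels and the study's methods, the authors pseudoaligned reads to the transcripts of BDGP6 with kallisto 0.46.1, summed the estimated counts per gene and normalized them with DESeq2 1.28.1 in R 4.0.1. The deposited values are therefore a normalized signal, estimated counts that are not whole numbers, and only genes the authors considered expressed are listed. Read depth is unknown, so no counting interval or detection limit is printed. The authors' own log2 fold changes, standard errors, test statistics, p-values and lists of changed genes stand in the same table and were not used. Pseudoalignment can divide reads between near-identical genes, and 16 called genes had the same values as another called gene.

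Values were tested on log2(value + 1) with limma 3.58.1 (trend and robust variances, statmod 1.5.0, R 4.3.3) in 1 model of the 12 fat body libraries in 4 groups, with Benjamini-Hochberg adjustment over 10850 genes. The code was tested on simulated data. H RNA-1 replicates carry the numbers 1, 2 and 4. Ovary and head tables served only to define ovary-abundant genes, which took at least 4 times their head share and at least 100 normalized counts in ovary. Genes were named where they had the 15 largest changes in each direction (called, mean of at least 100, groups apart, not ovary-abundant), the 6 largest falls among ovary-abundant genes, the 6 smallest p in each of 45 gene lists, membership of a list of at most 10 tested genes, or the 5 highest means. The comparison, the lists and these rules were chosen with earlier results of these data known. Exon lengths and coordinates came from the BDGP6 annotation, and 10774 of the tested genes had a length. Of the list names, 18 matched no gene in the table. Alternatives were other normalizations, filters and pseudocounts, left-out libraries, germline adjustments, a replicate block, stricter thresholds and, chosen after seeing the data, removal of each library's trend on exon length (lowess, span 0.4).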

Additional observations from a re-analysis of the deposited data

Results flagged for a closer look

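A total of 23 named genes passed the test of the difference between the larval diets (H change minus M change, adjusted p under 0.05 in limma), out of 219 genes in all. In each the difference was negative, as in 190 of the 219. Named genes were chosen largely by their change or p in M, and the M change enters the difference. The shared sign is thus partly set by the choice. Among the immune effectors it was -5.69 for Dro, -5.50 for DptB, -4.84 for Mtk, -2.60 for BomS5, -1.21 for BomT3 and -3.04 for BomS1. BomBc1, chosen after its values were seen, had -4.18, from 3.96 in M and -0.22 in H. In the Toll cascade the difference was -1.59 for PGRP-SD, -1.57 for PGRP-SA, -0.55 for GNBP1, -1.22 for Hayan and -0.93 for nec, which had log2 fold changes of 0.11, -0.35, 0.06, -0.17 and 0.25 in H. Among the serpins it was -1.17 for Spn43Ad, -1.997 for Spn88Eb and -0.89 for Spn42Dd.

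For 4 of the 23 genes the M change itself was not called. The lysozyme gene LysX had 0.45 in M and -2.91 in H, a difference of -3.35. Sec61beta, a subunit of the channel for secreted proteins, had 0.38 and -1.03 (difference -1.41), the proteasome subunit Rpn12 -0.16 and -0.58 (difference -0.42) and the glycosyltransferase Ugt317A1 0.58 and -0.78 (difference -1.36). Among metabolic genes the difference was -0.64 for GstT1, -1.47 for Lip4, -1.90 for Nmdmc and -1.30 for Ilp6. The number of genes that pass this test ranged from 0 to 2280 when single libraries were left out, so these differences rest on few pools.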

How the results depend on the processing

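Across all tested genes 924 were higher, 550 lower and 219 differed between the larval diets. With single libraries left out, the counts ranged from 519 to 1072, from 233 to 902 and from 0 to 2280. With the 6 M libraries alone 610 were higher. A replicate block gave 463 higher, 205 lower and 0 differing genes (1549 at an unadjusted p under 0.05). The labels do not say that the numbers pair the samples. The residuals of same-numbered RNA-1 and RNA-2 libraries correlated at -0.02, 0.07 and -0.26, and not every library correlated best with its own number. With 3 libraries per group these correlations cannot show whether same-numbered pools were handled together. With the germline mean as a covariate the counts were 370, 360 and 0 (1184 at an unadjusted p under 0.05), and without the 3 libraries richest in germline RNA 504 were higher, 451 lower and 0 differed. Without ovary-abundant genes, which leaves fewer genes to adjust over, 351 differed. Quantile normalization gave 357 differing genes and library totals 1451 higher and 115 differing genes. At an adjusted p under 0.01 the counts were 336, 158 and 0, and with at least a 2-fold change 252, 175 and 89. The cause of these moves was not tested. Other filters, pseudocounts, size factors and variance settings, and removal of the exon length trend, kept all 3 counts within 1.5 times. Of 326 named genes, 203 were called and 81 of those under every alternative. Cyp4g1 reversed, to 1.20 with quantile normalization. The 3 pools per group limit the precision, and depth is unknown.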

Other observations

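The groups of genes in this and the next paragraph were chosen after their values were seen, and their counts are descriptions. Of 9 genes of purine synthesis, 7 were called higher and none lower (median 1.04). Prps, which makes phosphoribosyl pyrophosphate, measured 18457, 18857 and 22303 at RNA-1 and 46818, 46286 and 42615 at RNA-2 (log2 fold change 1.19, standard error 0.11, adjusted p = 0.000345), and Prat2, the first enzyme committed to the pathway, 18423, 15591 and 25679 at RNA-1 and 38824, 49249 and 31124 at RNA-2 (log2 fold change 1.00, standard error 0.20, adjusted p = 0.0107). Paics, Pfas, Adsl and CG11089, whose products carry the ring to inosine monophosphate, rose by 1.32, 1.04, 0.78 and 1.40. These 6 were called whichever library was left out. Gart rose by 1.17 and lost its call without any of H RNA-1 replicates 1, 2 or 4, H RNA-2 replicate 1, RNA-1 replicates 1 or 2 or RNA-2 replicates 1 or 2 (0.93 to 1.17, adjusted p 0.0549 to 0.137). Prat and Adss had log2 fold changes of -0.32 and 0.04 and were not called. In H, 4 of the 9 genes were called higher. Mthfs, which returns formyl groups to the folate pool, rose by 1.07. Of 5 genes of polyamine synthesis 3 fell. The ornithine decarboxylase gene Odc1 measured 16457, 17065 and 16975 at RNA-1 and 8957, 10389 and 5715 at RNA-2 (log2 fold change -1.05, standard error 0.20, adjusted p = 0.0086), its neighbour in function Odc2 43.1, 45.2 and 50 at RNA-1 and 13.1, 22.2 and 18.7 at RNA-2 (log2 fold change -1.34, standard error 0.25, adjusted p = 0.00803) and the spermidine synthase gene SpdS 5128, 7444 and 7655 at RNA-1 and 2579, 3484 and 2875 at RNA-2 (log2 fold change -1.17, standard error 0.17, adjusted p = 0.00216). In H the 3 genes fell by 1.13, 1.78 and 1.05 on the log2 scale. AsnS, asparagine synthetase, measured 5437, 6355 and 7841 at RNA-1 and 1802, 1487 and 1738 at RNA-2 (log2 fold change -1.95, standard error 0.21, adjusted p = 0.00067), and Papss, which makes the sulphate donor of the cell, fell by 1.54.

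More genes of the immune response rose outside the lists. The antifungal peptide genes Dso1 and Dso2 measured 5174, 7724 and 16466 at RNA-1 and 160662, 89484 and 156244 at RNA-2 (log2 fold change 3.91, standard error 0.44, adjusted p = 0.000804) and 1117, 1772 and 3284 at RNA-1 and 38673, 19663 and 39131 at RNA-2 (log2 fold change 4.05, standard error 0.49, adjusted p = 0.00108), in an order of pools close to that of the Bomanins. Bbd (Bombardier, required for Bomanin function) measured 58721, 62509 and 94174 at RNA-1 and 469574, 319967 and 413680.1 at RNA-2 (log2 fold change 2.50, standard error 0.26, adjusted p = 0.000527) and was second only to Tsf1 in RNA-2 mean among the higher genes named here. BaraB and GNBP-like3 rose by 3.71 and 3.08, and Irc, an immune-regulated catalase, by 1.43. daw, an activin-like ligand, fell by 1.14. Arc1, which encodes a capsid-forming protein of synapses, measured 62665, 65512 and 75290.1 at RNA-1 and 114411, 129884 and 219470.4 at RNA-2 (log2 fold change 1.13, standard error 0.22, adjusted p = 0.00903). mAChR-C, a muscarinic receptor gene, measured 26.8, 9.24 and 61.1 at RNA-1 and 281, 307 and 385 at RNA-2 (log2 fold change 3.63, standard error 0.89, adjusted p = 0.0259) and lost its call without any of RNA-1 replicates 1 or 2 or RNA-2 replicates 1, 2 or 3 (2.95 to 3.73, adjusted p 0.0583 to 0.0903), with 4.26 without RNA-1 replicate 3.

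From the lists, odorant-binding proteins, small carriers of hydrophobic ligands, fell in 3 of 31 genes and rose in 1. Of all genes tested 5.07% were lower and 8.52% higher. Obp99a measured 26942, 38284 and 44011 at RNA-1 and 9187, 17424 and 5758 at RNA-2 (log2 fold change -1.87, standard error 0.35, adjusted p = 0.00833), and Obp83cd and Obp83ef fell by 1.34 and 0.97, all called whichever library was left out. Obp99d rose by 2.02 and lost its call without any of RNA-1 replicate 3 or RNA-2 replicates 2 or 3 (1.65 to 1.85, adjusted p 0.0571 to 0.0722). Of 39 cuticle protein genes 2 fell, Cpr49Ab by 1.21 and Cpr78Ca by 1.76, the latter lost without any of RNA-1 replicates 1 or 3 or RNA-2 replicates 1, 2 or 3 (-1.79 to -1.43, adjusted p 0.0774 to 0.118). Of 6 Malpighian tubule genes none was called in limma, and none had an unadjusted p under 0.05. By chromosome arm, the share of tested genes called higher was 10.5% on 2R, 9.50% on 2L, 8.58% on 3R, 7.40% on 3L and 6.30% on X, and the share called lower lay between 4.10% and 6.19% on these arms. Of the 82 tested genes of chromosome 4, 2 (2.44%) were higher and 7 (8.54%) lower. None of the 13 mitochondrial genes was called, and their median log2 fold change was -0.35.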
